A study of Mus musculus with 12 samples.

Results

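Glucocorticoid production and response were followed through 10 genes that act at successive steps of the pathway. Crh encodes corticotropin-releasing hormone, Hsd11b1 and Hsd11b2 encode enzymes that convert the steroid inside cells, and Fkbp5, Tsc22d3, Zbtb16, Klf9, Errfi1, Mt1 and Mt2 are genes that glucocorticoids induce. They were chosen by name, with earlier results of these data known. For each tissue the probe set with 1 gene symbol and the highest mean over that tissue's 6 arrays stood for the gene. Of the 10 genes, 9 had such a probe set, among 17097 genes measured in this way. Mt2 was not named alone by any probe set in the annotation table and has no value here.

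Expression was measured on 12 Affymetrix arrays, 6 of lung and 6 of liver, all from C57BL/6 mice. Abcb11 encodes the bile salt export pump of hepatocytes, without which bile acids accumulate. The lungs were all Abcb11+/-. They came from Abcb11-/- mothers mated with wild-type (WT) males or from WT mothers mated with Abcb11-/- males, so the father's genotype differs with the mother's and the effects of the parents cannot be told apart. There was 1 array for each mother at embryonic days 17.5 and 18.5 (E17.5, E18.5) and neonatal day 0 (N0). Whether an array stands for 1 pup or a pool is not stated in the labels, and a figure legend of the study that gives a number of lungs per group does not tie it to single arrays. The livers came from 3 Abcb11-/- and 3 WT mice of 1.5 months, and the labels name no hormone treatment for any group.

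Glucocorticoids are made in the adrenal cortex under the control of pituitary ACTH, which in turn is released by CRH from the hypothalamus. In the circulation they travel on corticosteroid-binding globulin, in cells they are regenerated by 11-beta-HSD1 or inactivated by 11-beta-HSD2, and they act through the glucocorticoid receptor, a transcription factor held by chaperones until it binds hormone. In the fetal lung they speed thinning of the septa and the onset of surfactant production before birth, and in the mouse Crh is also expressed in the fetal lung itself. In the liver they induce genes of glucose production and fuel use.

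The promoters of 4 members are shown because the results below turn on these genes: Errfi1, Klf9 and Tsc22d3 had the largest increases among the members in the lung between E17.5 and N0, and Mt1 belongs to a family induced by both glucocorticoids and zinc. Each is 300 bases around an annotated start in RefSeq (GRCm38.p6), 250 before it and 50 after it, on the gene's strand. Capitals mark matches on either strand to the glucocorticoid response half-site AGAACA, the metal response core TGCGCNC or TGCACNC, or the cAMP response half-site TGACG. The Errfi1 window is chr4:150854820-150855119 on the plus strand, that of Klf9 is chr19:23140976-23141275 on the plus strand, that of Tsc22d3 is chrX:140600473-140600772 on the minus strand and that of Mt1 is chr8:94178839-94179138 on the plus strand.
Errfi1: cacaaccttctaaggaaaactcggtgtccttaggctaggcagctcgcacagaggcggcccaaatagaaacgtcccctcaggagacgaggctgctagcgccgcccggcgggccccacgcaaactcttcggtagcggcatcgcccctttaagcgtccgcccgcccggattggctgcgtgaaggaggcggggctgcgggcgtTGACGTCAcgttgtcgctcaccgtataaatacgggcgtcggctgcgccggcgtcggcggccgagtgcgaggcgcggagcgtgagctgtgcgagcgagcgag
Klf9: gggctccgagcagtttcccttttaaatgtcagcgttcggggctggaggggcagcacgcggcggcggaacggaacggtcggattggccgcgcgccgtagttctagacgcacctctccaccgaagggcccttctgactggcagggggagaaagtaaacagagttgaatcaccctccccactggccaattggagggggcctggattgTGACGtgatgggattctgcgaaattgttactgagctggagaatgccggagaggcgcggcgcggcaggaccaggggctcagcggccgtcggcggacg
Tsc22d3: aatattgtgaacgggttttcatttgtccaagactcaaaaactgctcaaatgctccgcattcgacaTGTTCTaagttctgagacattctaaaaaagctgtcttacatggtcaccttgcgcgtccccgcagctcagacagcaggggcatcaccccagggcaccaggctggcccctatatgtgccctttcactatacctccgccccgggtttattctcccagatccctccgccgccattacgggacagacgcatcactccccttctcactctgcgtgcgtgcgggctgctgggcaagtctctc
Mt1: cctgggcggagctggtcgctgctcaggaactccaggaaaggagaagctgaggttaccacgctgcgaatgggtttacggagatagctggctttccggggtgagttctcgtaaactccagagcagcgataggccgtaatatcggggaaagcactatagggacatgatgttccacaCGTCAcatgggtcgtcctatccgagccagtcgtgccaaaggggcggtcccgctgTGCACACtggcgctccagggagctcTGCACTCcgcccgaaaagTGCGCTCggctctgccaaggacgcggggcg

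RefSeq windows were at hand for 7 of the 10 members, 10 windows in all because Errfi1 and Tsc22d3 have several starts. The other 3 are Crh, Zbtb16 and Hsd11b2. For Errfi1 and Tsc22d3 the window shown is one that holds a match. The other Errfi1 window and the Tsc22d3 window at chrX:140542619-140542918 held none. The Mt1 window held 3 matches to the metal response core, which 25.7% of all 32851 windows also hold at least once, that of Mt2 held 4 and that of Hsd11b1 held 1. The cAMP half-site was found in 4 of the 10 windows, against 20.8% of all windows. Errfi1 held the cAMP half-site on both strands at 1 place, overlapping as a palindrome, and Klf9, Mt1 and a downstream start of Tsc22d3 held it once each. The glucocorticoid half-site was found in 1 of the 10 windows, that of the upstream start of Tsc22d3, against 19% of all windows. The full palindrome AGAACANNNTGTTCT occurred in none of the 10 and in 0.00913% of all windows. These are matches of letters in a short window, and they say nothing of where the receptor binds.

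Abcb11 followed the genotype labels of the livers. It was at log2 values of 2.90, 3.14 and 3.26 in Abcb11-/- livers, against 11.22, 11.04 and 10.88 in WT livers. Lung epithelial genes averaged 9.48 to 10.76 over the 6 lung arrays, and hepatocyte genes averaged 12.37 to 12.54 in Abcb11-/- livers and 12.58 to 12.64 in WT livers. One array stood furthest apart. At E17.5 the lung with an Abcb11-/- mother also carried hepatocyte transcripts (mean of 9 genes 9.42, against 4.84 with a WT mother) and skeletal muscle transcripts (mean of 7 genes 8.57, against 3.98), which at E18.5 averaged 4.79 and 4.55 with an Abcb11-/- mother and 4.74 and 4.81 with a WT mother. The E17.5 lung with a WT mother differed too. Its mean of 7 lung epithelial genes was the lowest of the 6 lung arrays (9.48, against 10.09 with an Abcb11-/- mother). Its mean of 5 heart muscle genes was the highest (7.43, against 6.57). Each difference with the mother at E17.5 is therefore given beside those at the later stages. The part of these transcripts in the E17.5 values was not tested. All values are log2 signals of 1 probe set, so they compare samples for a gene and not genes with each other.

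**Figure D1:**
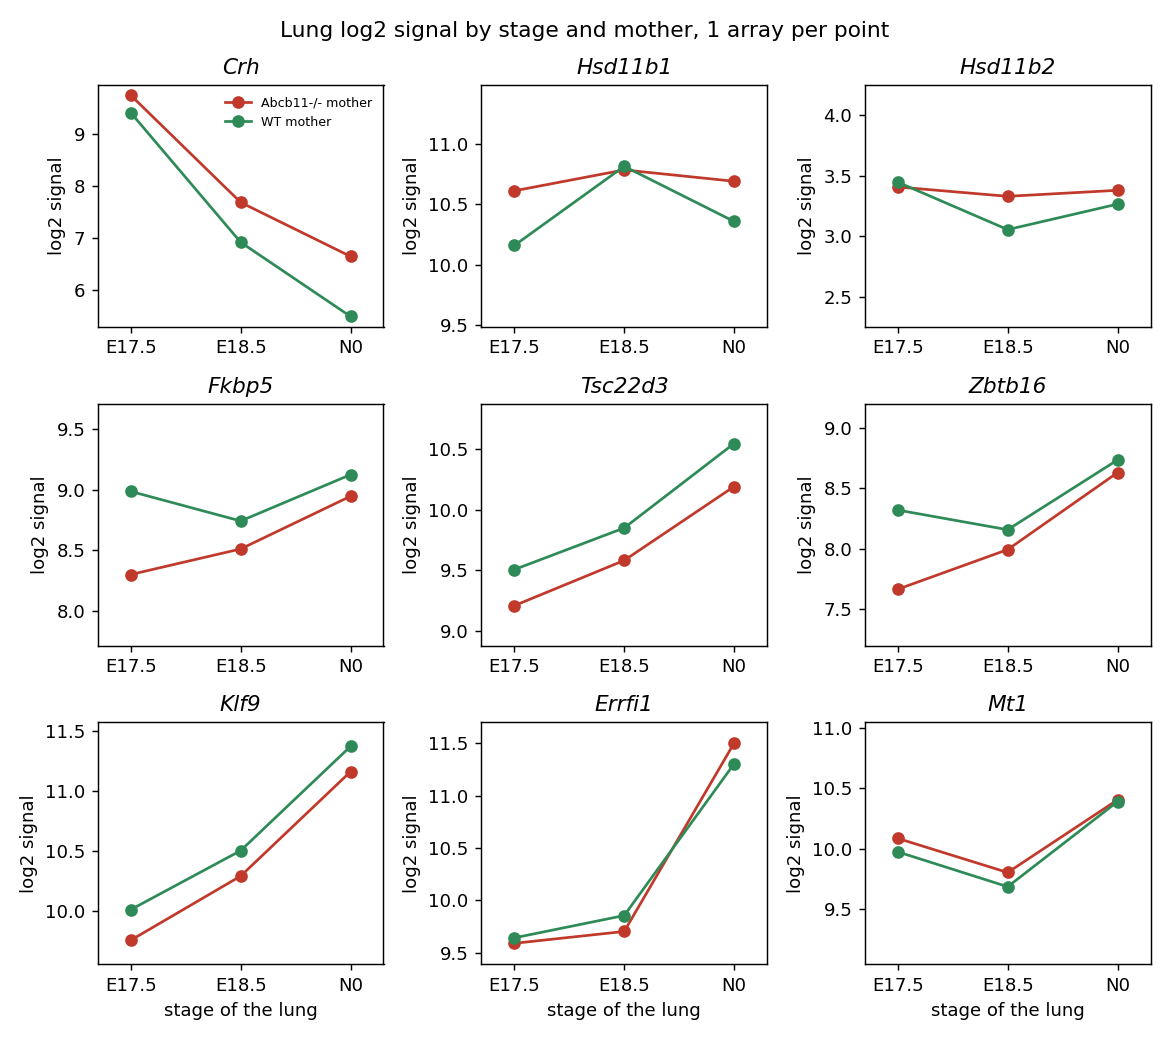
Log2 signal (y axis, each panel spanning at least 2 units) of the 9 measured members in lungs of 3 stages, E17.5, E18.5 and N0 (x axis), with an Abcb11-/- mother (red) and a WT mother (green), 1 array per point. Crh goes down over the stages on both lines, Errfi1 is at 11.50 with an Abcb11-/- mother and 11.30 with a WT mother at N0, and the red points of Fkbp5, Tsc22d3, Zbtb16 and Klf9 lie under the green ones at every stage.

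Crh, at chr3:19693401-19695396 (GRCm38.p6), was the member whose lung level differed most between stages. With an Abcb11-/- mother it was at 9.74 at E17.5, 7.68 at E18.5 and 6.64 at N0. With a WT mother it was at 9.41, 6.91 and 5.49 at the same stages. The level was thus lower at each later stage with either mother, 8.59-fold lower at N0 than at E17.5 with an Abcb11-/- mother and 15.2-fold lower with a WT mother. In whole tissue, fewer cells of a type and less RNA per cell cannot be told apart. Ordered by this decrease with a WT mother, Crh was number 3 of the 17097 genes. With an Abcb11-/- mother it was number 49, an order headed in part by hepatocyte and muscle genes of the E17.5 array that stood apart. In the limma fit of stage and mother over the 6 lung arrays, E18.5 differed from E17.5 by -2.28 (SE 0.21, adjusted p = 0.0582) and N0 from E18.5 by -1.23 (SE 0.21, adjusted p = 0.182), neither past an adjusted p of 0.05. The first was past it in 4 of 11 other settings, among them without the E17.5 array with an Abcb11-/- mother (-2.59, limma adjusted p = 0.0128) and without that with a WT mother (-1.96, limma adjusted p = 0.0169). In that contrast 0.0585% of all genes were called (0.0526% higher and 0.00585% lower) and none of the members was. With a prior that follows the mean signal and is robust to outlying genes, limma called Crh lower and Klf9 higher, against 1.15% of all genes (0.392% lower and 0.76% higher).

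The separation between the mothers was wider at each later stage. Crh was higher with an Abcb11-/- mother by 0.34 at E17.5, 0.77 at E18.5 and 1.16 at N0, the last a 2.23-fold difference between 2 arrays. It was the 1 member at least 1.5-fold apart at E18.5, where 3.39% of all genes were (2.13% higher), and the 1 member at least 1.5-fold apart at N0, where 7.04% were (4.16% higher). In the lower direction these shares were 1.26% and 2.88%, and no member was among them. Over the 3 stages the difference averaged 0.75 (95% interval 0.32 to 1.18), with an unadjusted p of 0.0053 and an adjusted p of 0.926 from limma over all genes. No gene passed that test, which has 2 residual degrees of freedom, while 867 had an unadjusted p under 0.05, and 1 gene (0.00585%, higher and no member) passed with the trended and robust prior. The interval for Crh rests on how far the difference varied between stages, with limma's pooled variance, and not on the spread between animals. At N0 the 6 lung fibroblast genes averaged 8.86 with an Abcb11-/- mother and 8.43 with a WT mother. Their median difference with the mother was 0.07 at E17.5, -0.08 at E18.5 and 0.34 at N0. The part of fibroblasts in the Crh difference was not tested. In the adult liver Crh was at 2.20, 2.40 and 2.46 in Abcb11-/- mice and at 2.36, 2.28 and 2.50 in WT mice, under the median of every array.

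The rest of the hypothalamic, pituitary and adrenal axis was dim in the lung. The 12 measured genes include the CRH receptors, Pomc, the ACTH receptor Mc2r and the steroid synthesis enzymes Star and Cyp11a1. None of the 12 was called in the liver, beside 7.24% of all genes. In the lung none was called either, where at most 0.0585% of all genes were in any limma contrast of stage or mother. Means over the 6 lung arrays were between 2.86 (Crhbp) and 3.70 (Star), against array medians of 3.63 to 3.68. Pomc, the precursor of ACTH, was at 3.50 with an Abcb11-/- mother and 2.82 with a WT mother at N0, so its difference of 0.68 lies among values under the array medians. Cyp17a1, a steroid hydroxylase singled out after its values were seen, was in the liver at 6.75, 7.97 and 6.66 in Abcb11-/- mice and at 8.65, 8.38 and 6.77 in WT mice, which overlap (-0.81, SE 0.53, limma adjusted p = 0.454). The 7 adrenal cortex markers averaged 3.09 to 3.52 on the lung arrays of Abcb11-/- mothers and 3.13 to 3.31 on those of WT mothers, the highest on the E17.5 array that also carried liver and muscle transcripts.

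Of the enzymes that convert the hormone in cells, Hsd11b1, which regenerates active glucocorticoid, was expressed in both tissues. In the lung it was at 10.61, 10.78 and 10.69 at E17.5, E18.5 and N0 with an Abcb11-/- mother, and at 10.16, 10.81 and 10.36 with a WT mother. The mothers differed by 0.45, -0.03 and 0.33 at the 3 stages, with no stage at 1.5-fold, and the E17.5 value comes from the array with hepatocyte transcripts, whose part in it was not tested. In the liver it was at 12.26, 12.53 and 12.42 in Abcb11-/- mice and at 12.67, 12.61 and 12.60 in WT mice. The genotypes did not overlap, yet the difference of -0.22 (SE 0.10, 95% interval -0.45 to 0.002) did not pass the test (limma adjusted p = 0.236).

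H6pd, which supplies NADPH to 11-beta-HSD1 in the endoplasmic reticulum, was at 9.25, 9.57 and 9.73 over the stages with an Abcb11-/- mother and at 9.08, 9.58 and 9.74 with a WT mother. Liver H6pd differed by -0.10 between genotypes (95% interval -0.38 to 0.18, limma adjusted p = 0.713). Hsd11b2, which inactivates glucocorticoid, was at 3.41, 3.33 and 3.38 in the lung with an Abcb11-/- mother and at 3.45, 3.05 and 3.27 with a WT mother, under the array medians throughout. In the liver it was as dim, at 2.79, 2.94 and 2.92 in Abcb11-/- mice against 2.77, 2.89 and 2.92 in WT mice. No difference in Hsd11b2 could be measured at these levels.

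Nr3c1, the glucocorticoid receptor gene, was at 9.32, 9.46 and 9.30 at E17.5, E18.5 and N0 with an Abcb11-/- mother and at 9.20, 9.26 and 8.85 with a WT mother. The difference with the mother was 0.13, 0.21 and 0.45, higher at each of the 3 stages and within 1.5-fold. Liver Nr3c1 was at 8.39, 8.41 and 8.18 in Abcb11-/- mice, against 8.51, 8.55 and 8.57 in WT mice, a difference of -0.22 (SE 0.09, limma adjusted p = 0.238) between groups that did not overlap. Nr3c2, the mineralocorticoid receptor that also binds glucocorticoids, differed by -0.51 in the liver (SE 0.15, limma adjusted p = 0.0933). None of the 6 measured chaperones and coregulators of the receptor was called in the liver or the lung. Of all genes, 7.24% were called in the liver and at most 0.0585% in any contrast of the limma fit of the lung.

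Serpina6, the gene of corticosteroid-binding globulin, fell in Abcb11-/- livers. It was at 11.68, 11.17 and 10.72 in Abcb11-/- mice and at 12.26, 12.09 and 12.24 in WT mice, with every Abcb11-/- value under every WT value. The difference was -1.01 (SE 0.22, 2.01-fold lower, limma adjusted p = 0.0353). The call was kept in 5 of 12 limma alternatives and was lost without any WT array (adjusted p 0.104 to 0.122 from limma), without Abcb11-/- replicate 2 (0.0663) or 3 (0.0583), with a trended prior (0.0616) and with the replicate number as a block (0.0591). In the lung Serpina6 was between 2.73 and 3.48 on all arrays, under the array medians. Abcb1a, an efflux pump that carries glucocorticoids among many other compounds, rose in the liver, at 9.83, 8.84 and 9.34 in Abcb11-/- mice against 6.79, 6.57 and 6.59 in WT mice (2.69, SE 0.23, 6.44-fold, limma adjusted p = 0.0014), and was called in each of 12 limma alternatives, though not by the methods' test after adjustment. In the lung it differed with the mother by -0.23, -0.41 and -0.63 at the 3 stages.

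The glucocorticoid-induced members were higher in the newborn lung than at E18.5 with both mothers. This held for Fkbp5, Tsc22d3, Zbtb16, Klf9, Errfi1 and Mt1, and with the dim Hsd11b2 it made 7 of 9 measured members, against 26.5% of all genes. Crh and Hsd11b1 were lower at N0 with both mothers, as were 34.3% of all genes. Among genes whose signal averaged 6 or more, as it did for the members other than Hsd11b2, 26.8% were higher and 41.6% lower. None of the 9 passed the test of N0 against E18.5 at an adjusted p of 0.05, nor did any of the 17097 genes (limma), while 6 members and 12.3% of all genes had an unadjusted p under 0.05. With the trended and robust prior, limma called 5 members, 4 of them higher (Errfi1, Klf9, Tsc22d3 and Mt1) and Crh lower, against 0.509% of all genes, 0.363% higher and 0.146% lower.

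Errfi1, whose product MIG6 is a feedback inhibitor of the EGF receptor, had the widest step at birth. It was at 9.59, 9.70 and 11.50 at E17.5, E18.5 and N0 with an Abcb11-/- mother and at 9.64, 9.85 and 11.30 with a WT mother. Both N0 arrays lay above all 4 fetal arrays. N0 differed from E18.5 by 1.62 (SE 0.15, 3.08-fold, limma adjusted p = 0.064), and the difference was called in 6 of 12 alternatives, among them without both E17.5 arrays (adjusted p = 0.0344 from limma). Leaving out either E17.5 array alone gives the same fit of this difference, so these settings among the 6 are not separate checks.

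Klf9, a zinc finger transcription factor at chr19:23141226-23168129 (GRCm38.p6), was at 9.76, 10.29 and 11.16 with an Abcb11-/- mother and at 10.01, 10.51 and 11.37 with a WT mother. It was higher at each later stage with either mother, by 2.60-fold between E17.5 and N0 on average, and number 190 of all genes in that increase. N0 differed from E18.5 by 0.87 (SE 0.13, limma adjusted p = 0.145). The Klf9 probe set that is brightest in the liver read 9.46 at E17.5 and 11.04 at N0 with an Abcb11-/- mother, and 9.87 and 11.17 with a WT mother.

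Tsc22d3, which encodes the anti-inflammatory protein GILZ, was at 9.21, 9.58 and 10.19 with an Abcb11-/- mother and at 9.51, 9.85 and 10.55 with a WT mother, again higher at each later stage. Fkbp5, a chaperone that lowers the receptor's affinity for hormone, was at 8.30, 8.51 and 8.95 with an Abcb11-/- mother and at 8.99, 8.74 and 9.13 with a WT mother. Zbtb16, the transcription factor PLZF, was at 7.66, 7.99 and 8.63 with an Abcb11-/- mother and at 8.32, 8.16 and 8.73 with a WT mother. For Fkbp5 and Zbtb16 the fetal step ran up with an Abcb11-/- mother and down with a WT mother, which rests on the E17.5 arrays. N0 differed from E18.5 by 0.65 for Tsc22d3, 0.41 for Fkbp5 and 0.61 for Zbtb16 (SE 0.13, 0.17 and 0.18), with adjusted p of 0.222, 0.42 and 0.313 from limma.

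Mt1, a metallothionein that binds zinc, was at 10.08, 9.80 and 10.40 with an Abcb11-/- mother and at 9.97, 9.69 and 10.39 with a WT mother. The 2 curves ran together, lowest at E18.5 and highest at N0, and N0 differed from E18.5 by 0.65 (SE 0.13, limma adjusted p = 0.225). Neutrophil transcripts were also higher at N0, with means of 5 genes of 7.77 with an Abcb11-/- mother and 8.49 with a WT mother, against 6.39 and 5.98 at E18.5. Their part in the newborn values was not tested.

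Of 19 other measured glucocorticoid-induced genes, 14 were higher at N0 than at E18.5 with both mothers and 2 were lower, against 26.5% and 34.3% of all genes. The median difference was 0.48 over the list and -0.02 over all genes. None was called. Dusp1, a phosphatase that inactivates MAP kinases, differed by 1.94 (SE 0.29, limma adjusted p = 0.15) and Pdk4, a kinase that restrains pyruvate oxidation, by 1.53 (SE 0.23, limma adjusted p = 0.145). Angptl4, an inhibitor of lipoprotein lipase, was 0.40 higher at N0 with an Abcb11-/- mother and 2.48 higher with a WT mother.

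Between the mothers, 4 members were lower with an Abcb11-/- mother at all 3 stages, namely Fkbp5, Tsc22d3, Zbtb16 and Klf9, and 2 were higher at all 3, Crh and Mt1. The background was 12.7% of all genes lower and 13.2% higher at all 3 stages, and 13.4% and 13.7% among genes with a mean of at least 6. The differences were small. Tsc22d3 differed by -0.30, -0.27 and -0.36 at E17.5, E18.5 and N0, and Klf9 by -0.25, -0.21 and -0.21. Fkbp5 differed by -0.69, -0.23 and -0.18, and Zbtb16 by -0.65, -0.16 and -0.11. Their 2 values at E17.5 were the only ones of these 4 genes at 1.5-fold. That size was reached by 7.02% of all genes at that stage (3.47% higher and 3.55% lower). Both set the array with hepatocyte and muscle transcripts against the WT-mother array of that stage, and the part of neither array was tested.

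At E18.5 and N0 alone the same 4 members were lower with an Abcb11-/- mother, against 24% of all genes, and 3 were higher, against 28.7%. Those 3 were Crh, Mt1, at 10.40 against 10.39 at N0, and Hsd11b2, too dim for a measurable difference. With 1 array per stage and mother these differences have no replicate at a stage. Over the stages they averaged -0.31 for Tsc22d3 (95% interval -0.57 to -0.05), -0.37 for Fkbp5 (-0.71 to -0.02), -0.31 for Zbtb16 (-0.67 to 0.05) and -0.23 for Klf9 (-0.48 to 0.03), each with an adjusted p of 0.926 from limma. Errfi1 and Mt1 averaged -0.002 and 0.08 (95% intervals -0.30 to 0.30 and -0.18 to 0.34). All these intervals rest on the spread between stages and not on that between animals. With a second Tsc22d3 probe set the differences were in the same direction, at 8.21, 8.86 and 9.41 with an Abcb11-/- mother against 8.93, 9.02 and 9.85 with a WT mother. Other probe sets did not all follow. A second one of Fkbp5 was at 6.40, 6.60 and 7.11 with an Abcb11-/- mother and at 7.16, 6.63 and 6.91 with a WT mother, higher at N0. A second one of Zbtb16 was at 5.58, 5.78 and 6.29 with an Abcb11-/- mother and at 5.94, 5.53 and 6.52 with a WT mother, higher at E18.5, and a dimmer one of Klf9 was at 6.86 with an Abcb11-/- mother and 6.78 with a WT mother at E17.5. Of the 5 neutrophil genes, 4 were lower at N0 by at least 1.5-fold with an Abcb11-/- mother, where 2.88% of all genes were. The median difference of these 5 genes with the mother was 1.17 at E17.5, 0.40 at E18.5 and -0.69 at N0, so the fetal stages ran the other way. Their part in the members' differences was not tested.

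**Figure D2:**
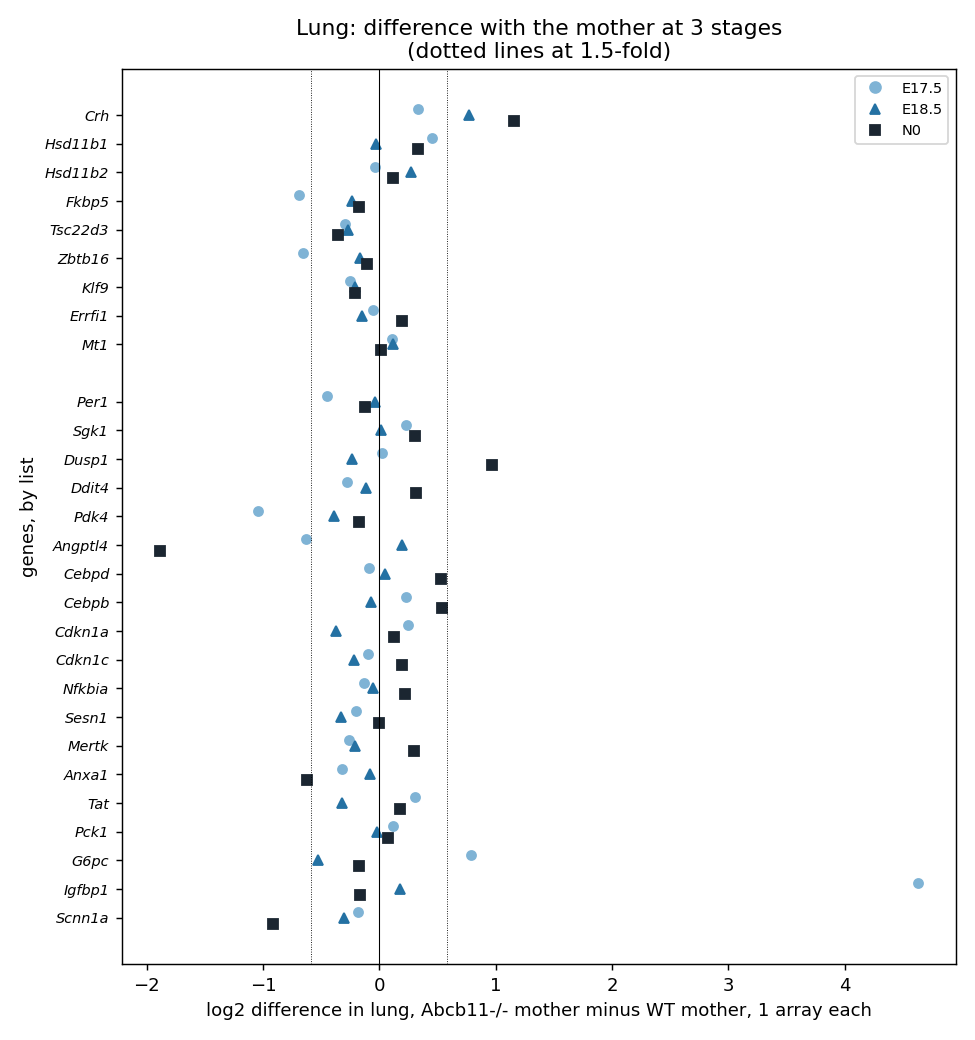
Log2 difference in the lung, Abcb11-/- mother minus WT mother (x axis), for the 9 measured members (upper block) and 19 other glucocorticoid-induced genes (lower block), with circles for E17.5, triangles for E18.5 and squares for N0, each from 1 array per mother, and dotted lines at 1.5-fold. Crh is at 1.16 and Angptl4 at -1.89 at N0, and the circle of Igfbp1, a gene of hepatocytes, is at 4.63 on the E17.5 array that carried hepatocyte transcripts.

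Among the other induced genes, 5 of 19 were lower at all 3 stages with an Abcb11-/- mother and 1 was higher, against 12.7% and 13.2% of all genes. The differences at N0 went both ways. Angptl4 was at 6.54 with an Abcb11-/- mother and 8.43 with a WT mother, and Scnn1a, a subunit of the epithelial sodium channel that clears lung liquid, was at 7.54 and 8.46. Anxa1, an anti-inflammatory phospholipid-binding protein, was at 10.44 with an Abcb11-/- mother and 11.06 with a WT mother, while Dusp1 was at 12.32 and 11.34. At E18.5 none of the 19 was at 1.5-fold, where 3.39% of all genes were.

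**Figure D3:**
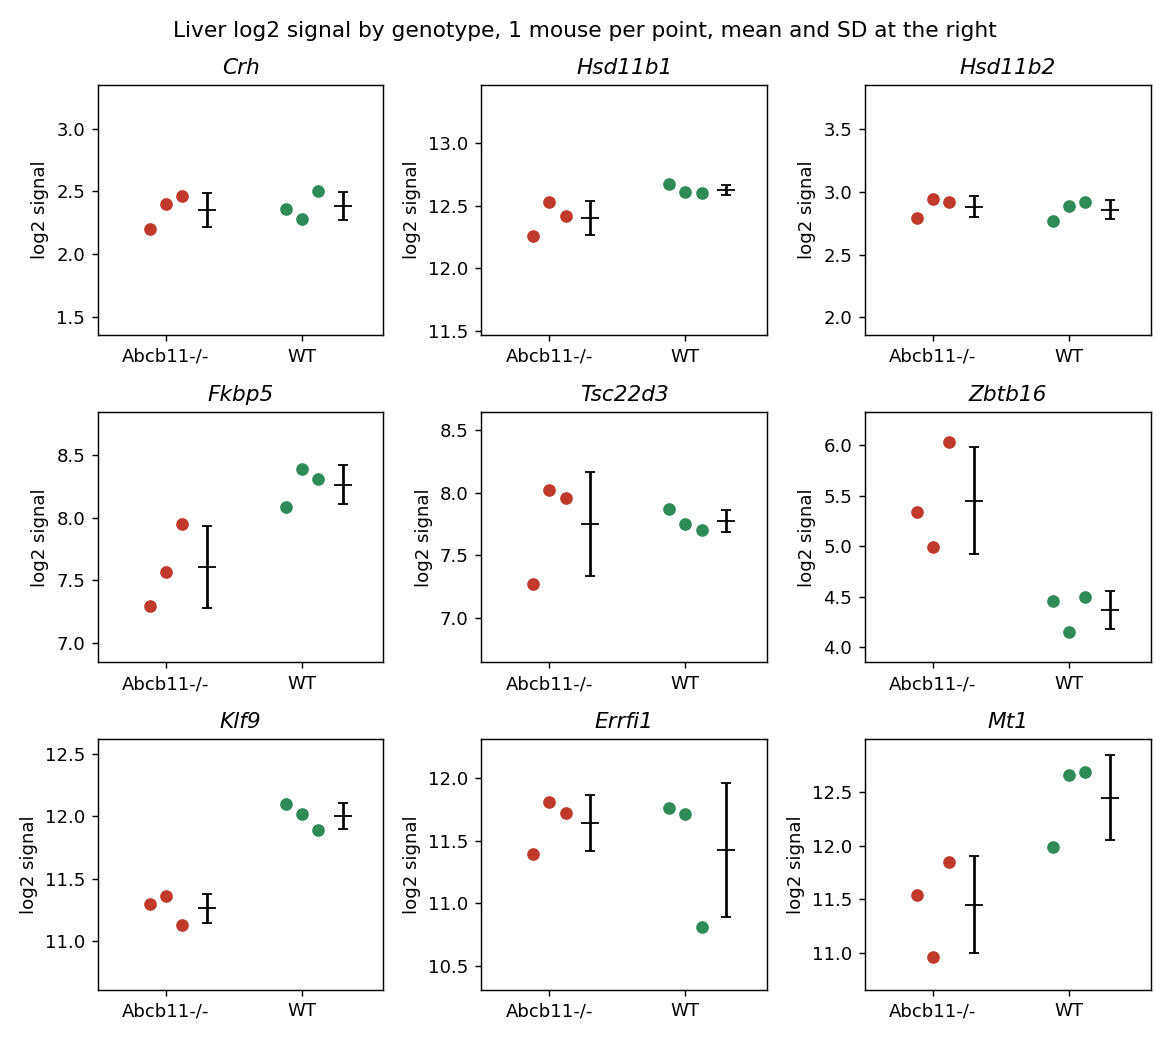
Log2 signal (y axis, each panel spanning at least 2 units) of the 9 measured members in livers of 3 Abcb11-/- mice (red, left) and 3 WT mice (green, right), with the mean and SD as a bar beside the points. The groups of Hsd11b1, Fkbp5, Zbtb16, Klf9 and Mt1 do not overlap, and Klf9 is at 11.13 to 11.36 in Abcb11-/- livers and 11.89 to 12.10 in WT livers.

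In the adult liver 1 member rose and 1 fell in Abcb11-/- mice. At an adjusted p under 0.05, limma called 2 of 9 members, against 7.24% of all genes (4.33% higher and 2.91% lower). The groups did not overlap for 5 members, against 26% of all genes in either direction. Of the 5, 4 were lower in Abcb11-/- livers, and the share of all genes by direction was not counted. With 3 mice against 3, an exact permutation test of 1 gene cannot give a p under 0.1. After adjustment, the test that the methods name called none of the members, nor Serpina6, Abcb1a, Pdk4, Ddit4, Angptl4, Slc39a14 or Slc30a10. The median difference of the 9 members was -0.03, against 0.003 over all genes.

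Klf9 was the member that fell. It was at 11.30, 11.36 and 11.13 in Abcb11-/- livers and at 12.10, 12.02 and 11.89 in WT livers, without overlap. The difference was -0.74 (SE 0.10, 95% interval -0.98 to -0.50), a 1.67-fold lower level with an adjusted p of 0.0067 from limma, and it kept the call in each of 12 limma alternatives (adjusted p 0.0008 to 0.0393). Other Klf9 probe sets were lower too, one at 5.90, 6.22 and 6.39 in Abcb11-/- livers against 7.42, 7.52 and 7.10 in WT livers, and one at 10.29, 10.18 and 10.03 against 10.94, 10.94 and 10.59.

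Zbtb16, at chr9:48651797-48836225 (GRCm38.p6), was the member that rose. It was at 5.34, 4.99 and 6.03 in Abcb11-/- livers and at 4.46, 4.15 and 4.50 in WT livers, a 2.12-fold higher level (log2 difference 1.08, SE 0.25, limma adjusted p = 0.0427) at the lower end of the signal range. The call did not hold in 6 of 11 limma alternatives. It was lost without WT replicate 1, 2 or 3 (adjusted p = 0.114, 0.159 and 0.11 from limma), without Abcb11-/- replicate 1 (0.0531), after quantile normalization (0.0517) and with the mean of both probe sets (0.125). The second Zbtb16 probe set was at 3.56, 3.36 and 3.95 in Abcb11-/- livers and at 3.43, 3.66 and 3.53 in WT livers, which overlap.

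Fkbp5 and Mt1 were lower in every Abcb11-/- liver than in any WT liver, and neither passed the threshold. Fkbp5 was at 7.30, 7.57 and 7.95 in Abcb11-/- livers and at 8.09, 8.39 and 8.31 in WT livers (-0.66, SE 0.17, limma adjusted p = 0.0622). Mt1 was at 11.54, 10.96 and 11.85 in Abcb11-/- livers and at 11.99, 12.66 and 12.69 in WT livers (1.995-fold lower, SE 0.26 on the log2 scale, limma adjusted p = 0.066). Fkbp5 was called in 3 and Mt1 in 2 of 12 limma alternatives, among them the fit of genes whose signal averaged 6 or more, in which both were. A dimmer second Fkbp5 probe set, at 4.21, 4.08 and 4.35 in Abcb11-/- livers and 4.62, 4.33 and 4.04 in WT livers, overlapped.

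Tsc22d3 and Errfi1 showed no separation of the genotypes. Tsc22d3 was at 7.27, 8.02 and 7.96 in Abcb11-/- livers and at 7.87, 7.75 and 7.70 in WT livers (-0.02, 95% interval -0.48 to 0.43). Errfi1 was at 11.39, 11.81 and 11.72 in Abcb11-/- livers and at 11.76, 11.71 and 10.81 in WT livers (0.21, 95% interval -0.38 to 0.81), with 1 WT liver under all the rest.

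Other genes of the pathway likewise moved in both directions in the liver. Of 19 measured glucocorticoid-induced genes, 2 rose and 1 fell, beside 4.33% of all genes higher and 2.91% lower, with a median difference of 0.40. Pdk4 was at 6.89, 7.03 and 8.33 in Abcb11-/- livers and at 5.44, 3.90 and 3.92 in WT livers (3.00, SE 0.51, 7.98-fold, limma adjusted p = 0.0143), a call lost without WT replicate 2 or 3 (0.0673 and 0.0664) and with a trended prior (0.0515). Ddit4, an inhibitor of mTORC1, rose by 1.23 (SE 0.27, limma adjusted p = 0.036), a call kept in 6 of 11 alternatives and lost without WT replicate 2 or 3 (0.13 and 0.117), without Abcb11-/- replicate 2 or 3 (0.0752 and 0.115) and under the replicate block (0.116). Angptl4 was at 9.01, 8.58 and 9.08 in Abcb11-/- livers and at 10.20, 9.73 and 9.76 in WT livers (-1.01, SE 0.18, limma adjusted p = 0.016), a call lost without WT replicate 1 or 3 (0.0526 and 0.0515). The median difference of all genes was 0.003, and none of these lists was tested as a set.

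Zinc handling was listed because the metallothioneins answer to zinc as well as to glucocorticoid. Of 9 measured genes 1 rose and 1 fell in Abcb11-/- livers, beside the same 4.33% and 2.91% of all genes. Slc39a14, a zinc importer of hepatocytes, was at 8.52, 8.26 and 7.96 in Abcb11-/- livers and at 9.11, 8.78 and 8.93 in WT livers (-0.69, SE 0.16, limma adjusted p = 0.0405). Slc30a10, a transporter best known for exporting manganese, was at 6.55, 6.79 and 7.10 in Abcb11-/- livers and at 6.30, 6.19 and 5.95 in WT livers (0.67, SE 0.16, limma adjusted p = 0.0475). Both calls were lost without any WT array (adjusted p 0.0869 to 0.135 for Slc39a14 and 0.0886 to 0.154 for Slc30a10, from limma) and without Abcb11-/- replicate 2 or 3 (0.0697 and 0.0952, 0.0777 and 0.113), and that of Slc30a10 also with the mean of probe sets (0.0963) and after quantile normalization (0.0515).

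Markers of some other cell types moved with the genotype in the same livers. The 5 neutrophil genes averaged 4.49 to 5.81 in Abcb11-/- livers and 3.35 to 3.89 in WT livers, and 3 of them rose, beside 4.33% of all genes. The 4 bile duct genes averaged 3.88 to 4.20 in Abcb11-/- livers and 3.34 to 3.55 in WT livers, near the liver array medians of 3.15 to 3.18. Of these, 2 rose (Epcam and Sox9), while the groups of Krt19 and Krt7 overlapped. None of the 6 macrophage, 6 fibroblast, 3 erythroid or 9 hepatocyte genes was called, beside 7.24% of all genes. The groups of 3 hepatocyte genes (Apob, Apoh and Ttr) did not overlap, each lower in Abcb11-/- livers, against 26% of all genes in either direction. Apoh and Ttr differed by -0.10 and -0.15. Apob, the dimmest, differed by -0.96 (SE 0.29, limma adjusted p = 0.0921). The others were at 12.94 or more in every liver, against array maxima of 13.84 to 14.16, near the top of the range. The part of any of these cell types in the differences of Klf9, Zbtb16, Fkbp5 and Mt1 was not tested.

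**Figure D4:**
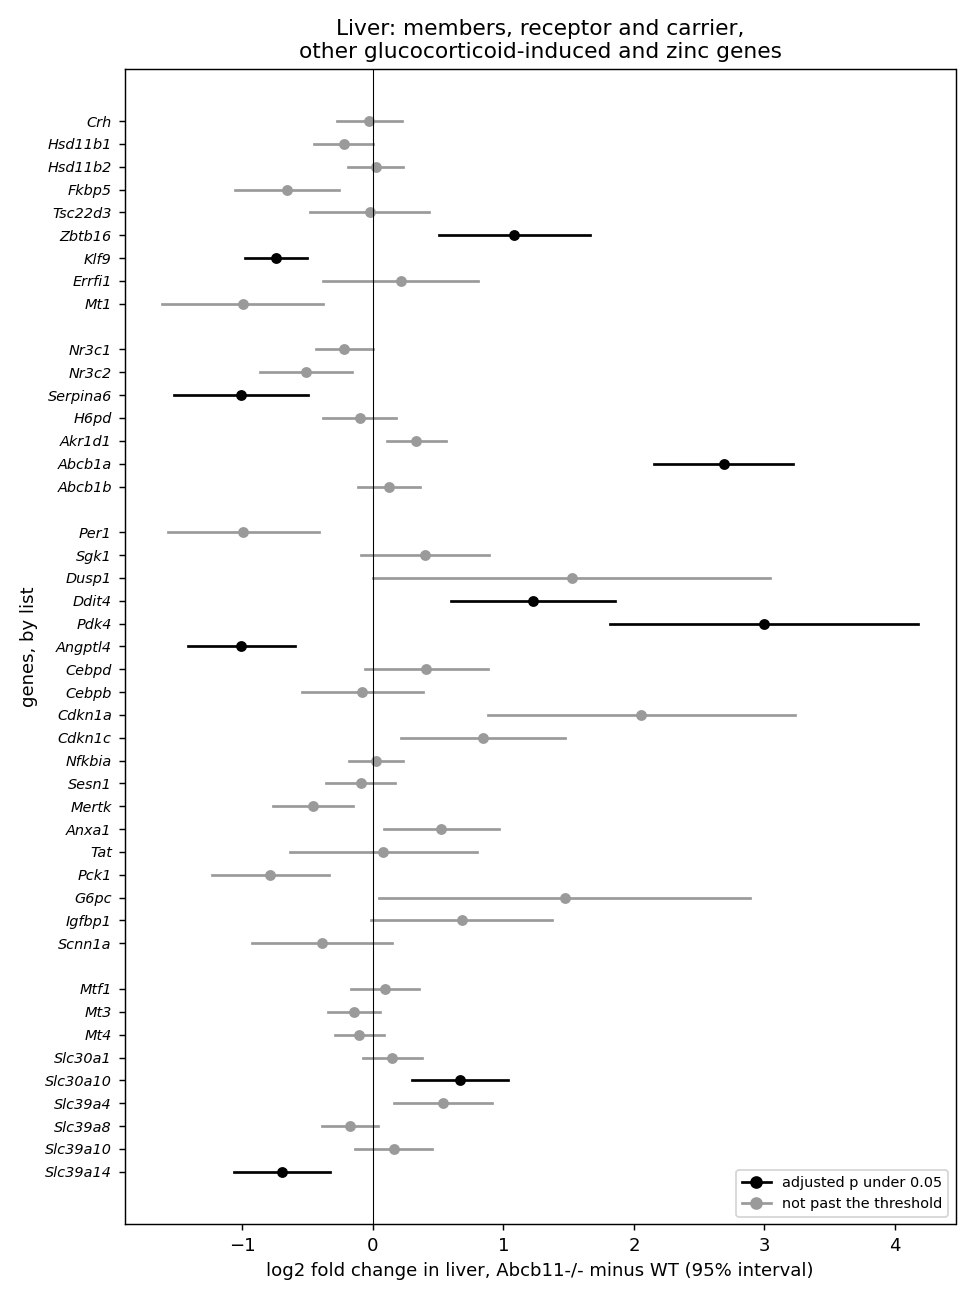
Log2 fold change in the liver, Abcb11-/- minus WT (x axis), with its 95% interval from limma, for the 9 measured members and, in further blocks down the page, the receptor and carrier genes, 19 other glucocorticoid-induced genes and 9 zinc genes. Black marks an adjusted p under 0.05 and grey the rest, with Klf9 at -0.74 and Zbtb16 at 1.08 the members in black.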

How the data were processed

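Total RNA of mouse lung and liver was labelled with biotin and hybridised to Affymetrix 3' expression arrays. The authors deposited log2 values, 1 per probe set and array, made with the RMA method (background correction, quantile normalization and summary of probes). Partek 6.5 is named in the submitters' notes on processing. No reads were counted, and precision is limited by how few arrays there were. Of 45037 probe sets, 28898 had 1 gene in the platform table, 551 had several and 15588 had none, and 28689 were matched to current symbols. The members and lists were chosen with earlier results of these data known.

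Values were used as deposited and tested on the log2 scale with limma 3.58.1 in R 4.3.3 (lmFit, eBayes, two-sided, Benjamini-Hochberg over all 17097 genes, threshold 0.05). Liver was fitted by genotype on 6 arrays. Lung was fitted by stage and mother on 6 arrays, with 2 residual degrees of freedom, which assumes that arrays of all stages vary alike. Its intervals and p-values rest on how far the mother difference varied between stages, and measure no spread between animals. Differences with the mother at 1 stage are single arrays, described against 1.5-fold. A mouse is labelled for each liver array, and p-values measure the spread between these arrays. Fits were tested on simulated data.

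Named genes are the members, Nr3c1, Nr3c2, Serpina6 and H6pd, and up to 4 genes of each list called in the liver, called at birth, or furthest apart at N0 among those at 1.5-fold. Crhbp and Star (the ends of a range), Igfbp1 and the examples naming a list were given after their values were seen. Each result was recomputed with the mean over a gene's probe sets, genes of mean log2 6 or more only, renormalized arrays (quantile or median), limma's trended robust prior, a block for replicate number (liver), 1 array or the E17.5 stage left out, other folds, and the methods' test. Counting directions at E18.5 and N0 only was added after seeing the data. Figures were drawn with matplotlib 3.10.9.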

Additional observations from a re-analysis of the deposited data

Results flagged for a closer look

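Slc30a10, a metal transporter of the zinc list, differed in opposite directions with the mother at 2 stages of the lung. At E17.5 it was at 3.88 with an Abcb11-/- mother and 3.20 with a WT mother, a difference of 0.67, and at N0 it was at 3.14 and 3.81, a difference of -0.67. Whether the stages differ was not tested. Each value is from 1 array, all lie near or under the array medians of 3.63 to 3.68, and the first array of the pair at E17.5 also held hepatocyte transcripts, whose part was not tested.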

How the results depend on the processing

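Of the alternatives, 915 values or counts stayed the same, 53 were weaker, 47 stronger, 51 moved and 21 changed sign. A tested gene stayed the same if it kept its direction and its side of the threshold, and was weaker or stronger if it lost or gained a call. A count stayed the same if it was within 1.5-fold, and was weaker or stronger if it fell to 0 or rose from 0. The cause was not tested. In the liver 1238 genes were called. The shared replicate numbers did not pair the samples (deviations of same-numbered livers correlated at -0.045, -0.041 and -0.135), and the replicate number as a block gave 671 genes (429 higher and 242 lower) and the same 2 members, with adjusted p of 0.0261 for Klf9 and 0.0355 for Zbtb16 from limma. Serpina6 (0.0591), Ddit4 (0.116), Slc39a14 (0.0519) and Slc30a10 (0.134) lost their calls under it. The methods' test gave 3129 genes and 4 members unadjusted, and 49 genes and 0 members after adjustment. Quantile normalization left 1 member. Leaving out 1 array gave 492 to 1509 genes and 1 to 3 members, with 567, 492 and 564 genes without WT replicates 1, 2 and 3 and 717 without Abcb11-/- replicate 3.

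For N0 against E18.5 in the lung, where limma called 0 genes and 0 members, the mean of probe sets gave 14 genes and 1 member, a minimum of 6 gave 18 and 1, a trended prior 87 and 5, leaving out the E17.5 stage 35 and 1, and leaving out 1 array 0 to 35 and 0 to 1. For E18.5 against E17.5, with 10 genes and 0 members, a minimum of 6 gave 45 and 1, quantile normalization 0 genes, a trended prior 197 and 2, and leaving out 1 array 0 to 307 and 0 to 1. For the mother over stages, with 0 genes, a minimum of 6 and a trended prior each gave 1 gene, and leaving out 1 array 0. Leaving out either E17.5 array or the whole stage gives the same fit of N0 against E18.5 and of the mother, so these are not separate checks. At least 1.5-fold apart with the mother were 2 members at E17.5 (4 at the lower of the other folds, 0 at 2-fold, 0 with the mean of probe sets), 1 at E18.5 (0 at 2-fold) and 1 at N0 (3 at the lower fold).

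Values that changed sign were all uncalled. Leaving out 1 array gave ranges in the liver of -0.16 to 0.22 for Tsc22d3 (0.12 with the mean of probe sets), -0.022 to 0.07 for Hsd11b2, -0.08 to 0.05 for Crh, -0.095 to 0.38 for Errfi1 and -0.18 to 0.02 for H6pd. In the lung, E18.5 against E17.5 ranged over -0.18 to 0.34 for Zbtb16 (-0.013 with the mean of probe sets) and -0.26 to 0.22 for Fkbp5 (0.017 with median centring). The mother difference of Errfi1 ranged over -0.10 to 0.073 (0.0030 with quantile normalization, 0.023 without the E17.5 stage). Genes near the array median, such as Hsd11b2, give no measurable difference.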
